A study of Caenorhabditis elegans with 10 samples.

Results

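The fatty acid elongase set is made up of 9 genes of Caenorhabditis elegans, found among the 19985 genes of the footprint table by their gene names: elo-1, elo-2, elo-3, elo-5, elo-6, elo-7, elo-8, elo-9 and let-767. They were found by name and not by a threshold on any value, though the set was proposed with earlier results of these data known. Ribosome profiling, the sequencing of mRNA fragments shielded by ribosomes, was carried out on whole wild-type (N2) animals grown at 20°C to the first day of adulthood. They were collected at 20°C, after a short stay at 10°C, or after that stay followed by 4°C for 1 day, 3 days or 5 days, with 10 libraries in all and 2 per condition. All 5 groups share the N2 genotype, the food bacterium OP50 and growth at 20°C up to adulthood, and none carried a transgene or drug. The stay at 10°C is given as 2 h in the protocols and as 3 h in the sample characteristics, and the characteristics of the samples titled 4C 5d read 3 days, so their titles were followed. No animals were kept at 20°C over the days that the others spent at 4°C, so cold and the time spent in it cannot be told apart.

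Fatty acids are lengthened in the endoplasmic reticulum by a cycle that adds a pair of carbons per turn from malonyl-CoA. The ELO proteins carry out the first step, the condensation, and differ in the chain they accept, and the product is then reduced, dehydrated and reduced again by enzymes that all chains share. In the worm, elo-1 lengthens polyunsaturated fatty acids, elo-2 lengthens palmitic acid, and elo-5 and elo-6 make the monomethyl branched-chain fatty acids on which growth depends. The gene let-767 codes for a ketoacyl-CoA reductase of the steroid dehydrogenase family, the enzyme type that follows the condensation. For elo-3, elo-7, elo-8 and elo-9 no substrate is given here.

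Each condition is represented by 1 value per transcript, in which the authors pooled both replicates. The values therefore have no SD and no replicate check, and no p-value is given. The unit is FPKM, footprints per kilobase of coding sequence, scaled to the total of the condition, so levels of different genes are compared per length. FPKM is a share of all footprints, so a fall common to all genes would not be seen, nor can a change in mRNA be told from a change in translation. In animals sequenced whole, fewer cells of a type and less RNA per cell cannot be told apart either. Whole footprint counts could be recovered from the FPKM, and every interval given is a 95% counting interval from them, exact Poisson for a level, Clopper-Pearson for a ratio and the exact conditional interval for a ratio of ratios, covering counting error only. How the replicates were combined is not stated, so a recovered count need not be a single read of a single library, and low counts scattered less between 20°C and 10°C than independent reads would. Summed over 1 transcript per gene, 424059 counts were recovered for 20°C and 300743 for 10°C, against 1560274 for 1 day of 4°C, 1693451 for 3 days and 1747362 for 5 days, so the 2 warmer conditions are the shallowest and least precise.

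On entry into 4°C the footprints of elo-1, elo-2, elo-5 and elo-6 fell beyond counting error, by amounts that differed widely. The branched-chain elongase elo-6 fell the most, elo-2 and elo-5 fell less, and elo-1 fell the least of the 4. The intervals of elo-3, elo-9 and let-767 at that step included no change. Of the 9 members, 7 averaged 1 FPKM or more across the 5 conditions and entered the comparisons. The other 2, elo-7 and elo-8, were at or near 0 throughout.

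The member with the highest level in the warm animals was elo-6, which takes part in making branched-chain fatty acids. Its level was 194 FPKM at 20°C (159 to 234, 108 counts) and 175 at 10°C (136 to 221, 70 counts), and then 4.10 after 1 day at 4°C (9 counts), 1.63 after 3 days (4 counts) and 0.793 after 5 days (2 counts). Both warm values lie far above all 3 cold values, and the intervals do not meet. At 1 day of 4°C elo-6 was 42.5-fold lower than at 10°C (21.2 to 96.8), the fall with rank 3 among the 9945 genes compared. At 5 days it was 245-fold lower than at 20°C (66.1 to 2045), which rests on 2 counts in the cold and ranks 9 among the same genes. Its level stood above 94.5% of the compared genes at 20°C and above 11.8% of them at 5 days of 4°C.

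Its partner in the branched-chain pathway, elo-5, is read from a coding sequence of the same length, 825 nt. It had 86.1 FPKM at 20°C (48 counts), 72.3 at 10°C (29 counts), 8.67 at 1 day of 4°C (19 counts), 4.88 at 3 days (12 counts) and 1.98 at 5 days (5 counts). The order of the conditions is that of elo-6, with the warm values highest. On entry into 4°C elo-5 was 8.34-fold lower (4.52 to 15.7), and from 20°C to 5 days of 4°C it was 43.5-fold lower (17.4 to 140). The fall of elo-6 at 1 day was thus 5.02-fold deeper than that of elo-5 (1.90 to 14.2). In FPKM, elo-6 stood at 2.25 times elo-5 at 20°C and 2.41 times at 10°C, and at 0.474, 0.333 and 0.400 times after 1, 3 and 5 days at 4°C.

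The palmitic acid elongase elo-2 kept a high level at 10°C and lost it in the first days at 4°C. Its values were 124 FPKM at 20°C (69 counts), 159.6 at 10°C (64 counts), 14.6 at 1 day of 4°C (32 counts), 4.07 at 3 days (10 counts) and 4.76 at 5 days (12 counts). The fall from 10°C to 1 day of 4°C was 10.9-fold (7.05 to 17.3), and a second fall of 3.59-fold (1.72 to 8.19) followed between 1 and 3 days. The values at 3 and 5 days were not separable, with a ratio of 1.17 (0.463 to 3.02). Nor could the falls of elo-2 and elo-5 be told apart by the counts, since the fall of elo-2 at 1 day was 1.31-fold that of elo-5 (0.597 to 2.84).

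The polyunsaturated fatty acid elongase elo-1 fell less and was the only one of the 6 compared elo genes whose interval put it higher at 5 than at 3 days. It had 73.4 FPKM at 20°C (43 counts), 52.2 at 10°C (22 counts), 25.6 at 1 day of 4°C (59 counts), 15.5 at 3 days (40 counts) and 24.9 at 5 days (66 counts). The warm values are the highest and the value at 3 days is the lowest. At 1 day of 4°C elo-1 was 2.04-fold lower than at 10°C (1.19 to 3.38), and it was 1.65-fold lower again at 3 days (1.09 to 2.54). Between 3 and 5 days it was 1.61-fold higher (1.07 to 2.44), below the 2-fold mark for a call. The ratio of 5 to 3 days was 2.64-fold larger for elo-1 than for elo-3 (1.24 to 5.76) and 1.98-fold larger than for let-767 (1.24 to 3.19). From that of elo-2 it was not separable, at 1.37-fold (0.483 to 3.83).

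The levels of elo-3 were 29.2 FPKM at 20°C (19 counts), 25.6 at 10°C (12 counts), 12.1 at 1 day of 4°C (31 counts), 10.1 at 3 days (29 counts) and 6.11 at 5 days (18 counts). Each value lies below the one before, but no single step leaves out a ratio of 1. The step into 4°C was 2.12-fold down (0.990 to 4.24), while against 20°C it was lower at each time in the cold, by 2.41-fold at 1 day (1.29 to 4.41), 2.89-fold at 3 days (1.53 to 5.34) and 4.78-fold at 5 days (2.37 to 9.66).

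The reductase gene let-767 had the smallest ratio on entry into 4°C. It had 123 FPKM at 20°C (79 counts), 106 at 10°C (49 counts), 76.4 at 1 day of 4°C (193 counts), 63.1 at 3 days (179 counts) and 51.2 at 5 days (149 counts). The values step down in small amounts, none of which leaves out a ratio of 1, with 1.39-fold down at 1 day against 10°C (0.993 to 1.91). From 20°C to 5 days of 4°C the fall was 2.40-fold (1.80 to 3.17). Its 4 transcripts share nearly all of their counts, with 193 to 195 at 1 day, and cannot be read apart.

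**Figure D1:**
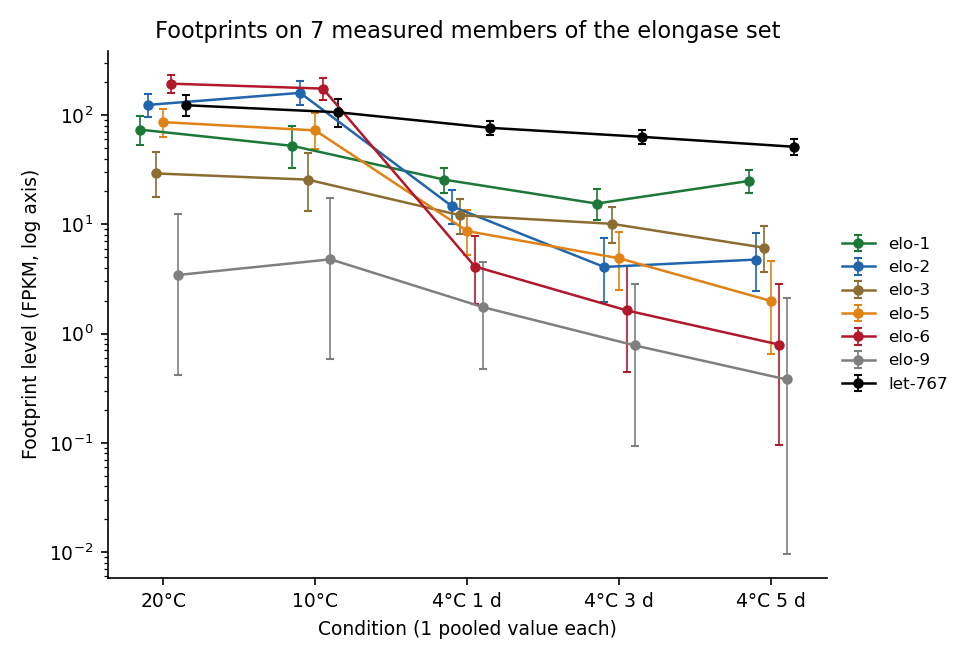
Footprint level in FPKM on a log axis for the 7 compared members in the 5 conditions, 1 pooled value each, with exact Poisson 95% intervals as bars. The line of elo-6 starts highest, at 194 FPKM, and ends at 0.793, while let-767 goes only from 123 to 51.2.

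The remaining 3 members gave too few counts to follow. The level of elo-9 was 3.44 FPKM at 20°C (2 counts), 4.78 at 10°C (2 counts), 1.75 at 1 day of 4°C (4 counts), 0.779 at 3 days (2 counts) and 0.380 at 5 days (1 count). It passed the filter only through its warm values, where 1 count is worth 1.72 and 2.39 FPKM, and none of its ratios in the comparisons made leaves out 1. The gene elo-8 had 1 count at 3 days and 1 at 5 days of 4°C and 0 elsewhere, and elo-7 had 1 count, at 5 days. At 10°C, the shallowest condition, 3 counts would be 6.64 FPKM of elo-7 and 7.02 FPKM of elo-8, so levels below these were not detectable there. The elo gene outside the set, elo-4, had at most 1 count in any condition.

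The order of the members by level changed between the warm and the cold. At 20°C it ran elo-6, elo-2, let-767, elo-5, elo-1, elo-3 and elo-9, and elo-6 stood 1.57-fold above elo-2 (1.15 to 2.15). The neighbours elo-2 and let-767, let-767 and elo-5, and elo-5 and elo-1 were not separable there. At 10°C the order was the same, though elo-6 and elo-2 could no longer be told apart, with a ratio of 1.09 (0.768 to 1.56). In all 3 cold conditions let-767 was first and elo-1 second, and let-767 stood 2.98-fold (2.22 to 4.06), 4.08-fold (2.88 to 5.90) and 2.06-fold (1.53 to 2.79) above elo-1 at 1, 3 and 5 days. At 5 days elo-1 in turn stood 4.07-fold above elo-3 (2.39 to 7.29), and below elo-3 no neighbours were separable.

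Summed over the 8 elo genes of the set, the footprint level was 509.8 FPKM at 20°C, 489 at 10°C, 66.8 at 1 day of 4°C, 37.3 at 3 days and 39.6 at 5 days. In counts per depth, the sum was 7.07-fold lower at 1 day than at 10°C (5.70 to 8.78), 1.76-fold lower again at 3 days (1.36 to 2.29), and 12.3-fold lower at 5 days than at 20°C (9.85 to 15.6). The step from 3 to 5 days gave a ratio of 1.05 (0.793 to 1.40), and that from 20°C to 10°C 0.957 (0.795 to 1.15). The sum of the condensing enzymes stood at 4.15 times let-767 at 20°C and 4.61 times at 10°C, and at 0.875, 0.591 and 0.774 times in the 3 cold conditions.

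The make-up of that sum turned over as well. The branched-chain elongases elo-5 and elo-6 together made up 54.9% of it at 20°C and 50.5% at 10°C, then 19.1%, 17.4% and 7.0% at 1, 3 and 5 days of 4°C. The share of elo-1 went the other way, from 14.4% and 10.7% in the warm to 38.3%, 41.5% and 62.8% in the cold. Of the elo counts, elo-1 held 43 of 289 at 20°C, or 14.9% (Wilson 95% interval 11.2 to 19.4), and 66 of 106 at 5 days, or 62.3% (52.8 to 70.9). Its own level fell over the same span, so the larger share is one of a smaller sum. The share of elo-3 was 5.73% at 20°C, 18.1% at 1 day, 27.1% at 3 days and 15.4% at 5 days.

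**Figure D2:**
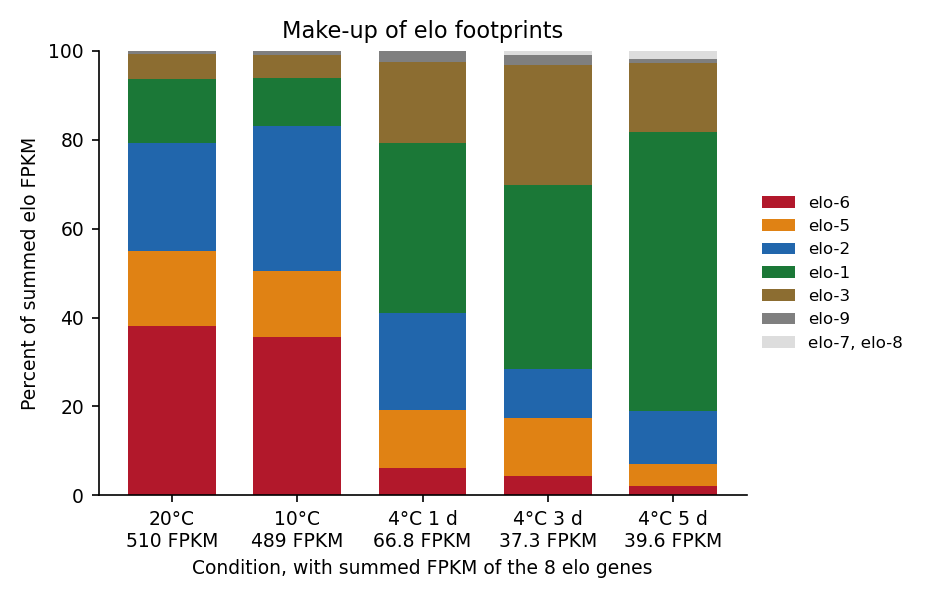
Percent of the summed FPKM of the 8 elo genes taken by each gene, by condition, with the sum printed under each bar. The red and orange blocks of elo-6 and elo-5 shrink from 54.9% to 7.0% together, and the green block of elo-1 grows from 14.4% to 62.8%, while the sum falls from 509.8 to 39.6 FPKM.

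For comparisons across the whole table the scale was log2(FPKM + 0.5), on which a change of 2-fold or more counted as a call. A call is termed clear if the plain ratio is 2-fold or more too, the pair of conditions holds 10 counts or more and the interval leaves out 1. From 20°C to 10°C none of the 7 compared members was called, where 9.1% of the 9945 compared genes were called lower and 12.2% higher. The clear rule called 0.201% of its genes lower and 0.744% higher there, and 0 members. The log2 differences of the members ran from -0.49 for elo-1 to 0.42 for elo-9. With 22 counts or fewer at 10°C for elo-1, elo-3 and elo-9, a 2-fold change of these could have been missed.

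From 10°C to 1 day of 4°C, the step at which the study centred its account, 6 of the 7 were called lower and none higher, where 14.5% of the compared genes were called lower and 17.8% higher. One of the 6 is elo-9, on 2 and 4 counts, whose warm values alone brought it past the filter, so its call says nothing about a fall. Leaving it out with a stricter filter of 5 FPKM on all genes, 5 of 6 members were called lower, beside 8.43% of 6428 genes. The falls of elo-1, elo-2, elo-5 and elo-6 were clear, a rule that called 4.23% of its genes lower and 6.84% higher. The log2 differences were -5.25 for elo-6, -3.41 for elo-2, -2.99 for elo-5, -1.23 for elo-9, -1.05 for elo-3, -1.01 for elo-1 and -0.47 for let-767. The median of the 6 without elo-9 was -2.02, beside 0.17 over the genes of the stricter filter. Among the 15 pairs of the 6 members with enough counts, the intervals of 11 left out equal falls, each at 95% and not adjusted over the pairs. These 11 pairs divide the members into elo-6, then elo-2 and elo-5, then elo-1, elo-3 and let-767, within which no pair was separable. Against 20°C, the deeper reference, 5 of the 7 were called lower at 1 day, where 12.2% of genes were called lower and 19.7% higher, and elo-9 at 1.97-fold down (0.178 to 13.7) dropped out. All 5 of these were clear, as were 4.94% of genes downwards and 10.1% upwards. With that reference the intervals of 12 of the 15 pairs left out equal falls, again not adjusted over the pairs. The fall of elo-1 at 1 day was then 1.78-fold deeper than that of let-767 (1.08 to 2.93), so the last group did not hold together there.

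**Figure D3:**
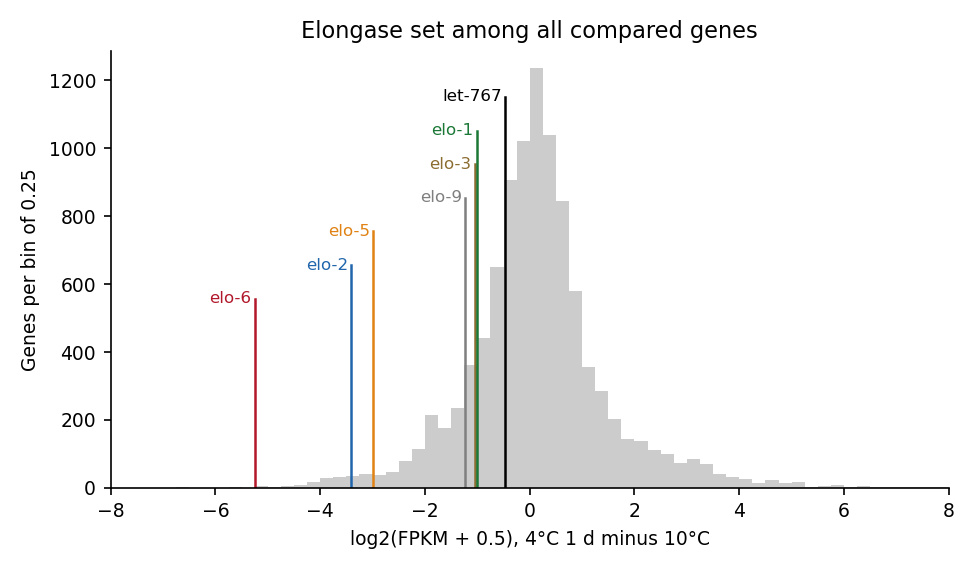
Number of compared genes by log2(FPKM + 0.5) difference, 4°C at 1 day minus 10°C, in bins of 0.25, with a line at the value of each of the 7 members (line heights only separate the names, and genes above 8, up to 9.24, lie off the axis). The bulk of the genes lies around a median of 0.10, let-767 stands at -0.47, and elo-6 stands at -5.25.

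Between 1 and 3 days at 4°C, elo-2 and elo-6 were called lower, 2 of 7 where 6.78% of genes were called lower and 5.38% higher. The fall of elo-2 was clear, a rule that called 4.27% of its genes lower and 2.62% higher, and that of elo-6 (2.52-fold, 0.704 to 11.2) rests on 9 and 4 counts. All 7 members, or 6 of 6 without elo-9, were lower at 1 day than at 10°C and lower again at 3 days by some amount, which 23.1% of the compared genes were (21.8% under the stricter filter). At 5 days 5 of the 7, or 4 of the 6, were lower still, beside 14.1% of genes (12.8%). These tallies ask for no minimum size, and several of the steps lie within counting error. Between 3 and 5 days only elo-5 was called, lower by 2.46-fold (0.807 to 8.92) on 12 and 5 counts, where 14.7% of genes were called lower and 2.85% higher. No member met the clear rule in that step, and 10.2% of its genes did so downwards and 1.53% upwards.

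From 20°C to 5 days of 4°C all 7 compared members were called lower, where 21.5% of genes were called lower and 23.6% higher. Without elo-9, which is held by 1 and 2 counts, 6 of 6 were called lower, beside 16.1% of the genes of the stricter filter. All but elo-9 met the clear rule, which called 11.1% of its genes lower and 17% higher. The median log2 difference of the 6 was -3.37, beside 0.32 over the genes of the stricter filter. The falls of elo-2 and elo-5 were again deeper than those of elo-1, elo-3 and let-767, by 5.35-fold for elo-2 against elo-3 (2.04 to 14.6) and 14.5-fold for elo-5 against elo-1 (5.22 to 50.4). The greater fall of elo-6 than of elo-5 over this span, 5.56-fold, had an interval that reached below 1 (0.873 to 60.3). With 3 days in place of 5 days, 6 of 7 were called lower, where 15.5% of genes were called lower and 23.2% higher, and let-767 at 1.95-fold down (1.48 to 2.55) fell short of the mark. Its log2 difference there was -0.96 as deposited and passed the mark, at -1.18, after rescaling by median ratios. Clear falls numbered 5 there, beside 8.22% of genes downwards and 14.2% upwards.

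**Figure D4:**
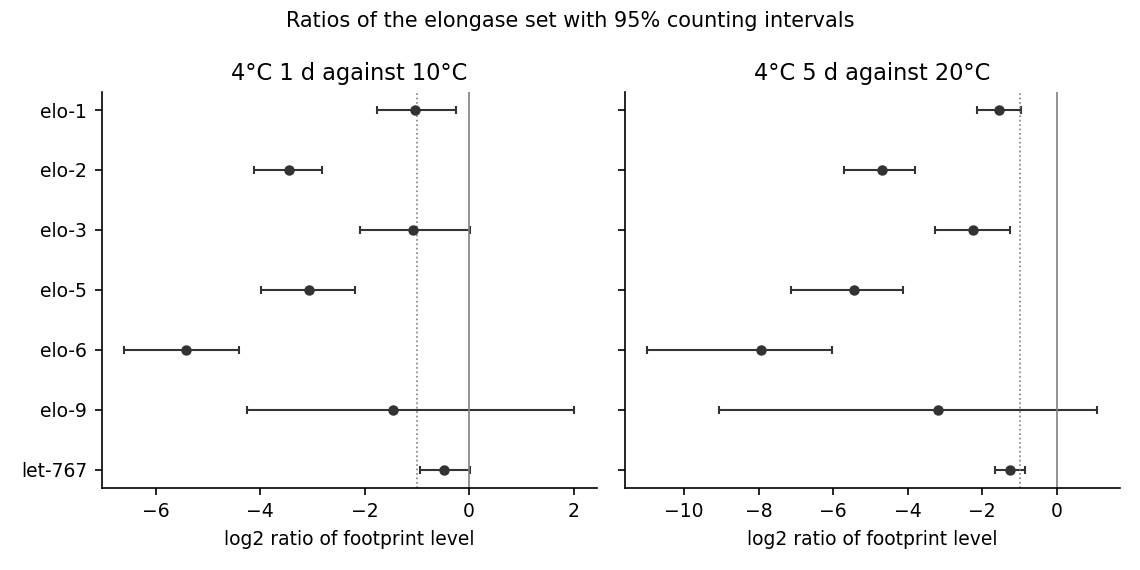
log2 ratio of the footprint level for the 7 members, 4°C at 1 day over 10°C on the left and 4°C at 5 days over 20°C on the right, with 95% counting intervals as bars and dotted lines at a 2-fold fall. In both panels elo-2, elo-5 and elo-6 lie to the left of elo-1, elo-3 and let-767, and the bar of elo-9 crosses 0.

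The members do not lie together in the genome. On the WBcel235 build, 6 of the 9 are on chromosome IV, 2 on chromosome III and 1 on chromosome II. The genes elo-5 (chromosome IV, 5374616 to 5377117) and elo-6 (chromosome IV, 5386629 to 5388559) are on the same strand with 9511 nt between them. The gene elo-1 (chromosome IV, 9526366 to 9528336) and elo-7 (chromosome IV, 9529947 to 9531400) are also on one strand, with 1610 nt between them. The remaining members on chromosome IV are elo-2 (17466062 to 17467408) and elo-3 (7237718 to 7240488). On chromosome III lie let-767 (6338508 to 6339969) and elo-8 (11230377 to 11232069), and on chromosome II lies elo-9 (14959526 to 14964108). No coding exon of a member overlaps one of another gene.

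Of 5 other genes lying next to a member that could be compared, none was called lower at 1 day of 4°C against 10°C or at 5 days against 20°C. Of all compared genes, 14.5% and 21.5% were called lower in these comparisons. In both, 1 of the 5, htp-1, was called higher, beside 17.8% and 23.6% of all compared genes. So few genes cannot show a difference from these shares. The gene next to elo-6 on the same strand, htp-1, which codes for a meiotic chromosome axis protein, had 9.71 FPKM at 10°C and 24.2 at 1 day of 4°C, a log2 difference of 1.27. Next to let-767, at 143 nt on the same strand, rpn-13, a proteasome subunit gene, had 245 FPKM at 10°C and 244 at 1 day, a log2 difference of -0.01. The gene F41H10.3, which overlaps the span of elo-5 on the other strand, had a log2 difference of -0.32 between the same conditions. These are single values from the same pooled columns.

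Of the enzymes that complete the elongation cycle and supply its malonyl-CoA, a list of 5 genes that includes let-767, 1 was called lower from 10°C to 1 day of 4°C, beside 14.5% of all compared genes, and 4 from 20°C to 5 days, beside 21.5%. The gene pod-2, for acetyl-CoA carboxylase, which makes malonyl-CoA, went from 37.9 FPKM at 10°C to 14.0 at 1 day and from 30.3 at 20°C to 4.15 at 5 days, a fall of 7.30-fold over the whole course (4.57 to 11.8). The gene fasn-1, for fatty acid synthase, went from 26.2 FPKM at 20°C to 3.67 at 5 days (7.15-fold, 5.44 to 9.45). At 1 day against 10°C fasn-1 was 1.77-fold lower (1.36 to 2.28) and was not called. It was then 1.32-fold higher at 3 days than at 1 day (1.12 to 1.55), and 4.30-fold lower at 5 days than at 3 days (3.40 to 5.49). The genes for the shared later steps gave smaller ratios. A hydroxyacyl-CoA dehydratase gene, hpo-8, was 1.46-fold lower at 1 day than at 10°C (0.784 to 2.56), and an enoyl-CoA reductase gene, art-1, 1.06-fold lower (0.854 to 1.31). Over the whole course the falls were 3.23-fold for hpo-8 (2.03 to 5.09) and 1.99-fold for art-1 (1.62 to 2.44), beside 2.40-fold for let-767.

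The fatty acid desaturases add double bonds to fatty acid chains. All were called lower, 7 of 7, both at 1 day against 10°C and at 5 days against 20°C. Of all compared genes, 14.5% and 21.5% were called lower in these comparisons. Clear falls numbered 4 and 5 of the 7, beside 4.23% and 11.1% of the genes of that rule. The median log2 differences of the desaturases were -2.87 and -3.36. The omega-3 desaturase gene fat-1 had 69.8 FPKM at 10°C and 24.0 at 1 day, the palmitic acid desaturase gene fat-5 had 69.8 and 3.38, and the stearic acid desaturase genes fat-6 and fat-7 had 111 and 14.8, and 34.4 and 4.44. These 4 were clear at that step. The falls of the other desaturases, fat-4, fat-3 and fat-2, were not clear at that step, with 6 counts or fewer in either condition. A single count was worth more FPKM for each of them than for fat-1, fat-5, fat-6 and fat-7. The transcripts taken for fat-4, fat-3 and fat-2 thus had shorter coding sequences. Whether their low counts reflect the transcript taken or the gene was not tested. At 1 day the call of fat-4 rests on 2 and 0 counts and that of fat-3 on 1 count in each condition (ratio interval 0.00233 to 14.4). Like elo-9, fat-3 passed the filter only through its warm values, so its call says nothing about a fall. The tallies of 7 of 7 and both medians include fat-2, fat-3 and fat-4. The median of -3.36 is the value of fat-3 itself, on 3 and 1 counts. These medians are thus not matched to those of the elongases without elo-9.

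Of 12 genes for the supply and use of branched-chain fatty acids, 9 were compared. At 1 day against 10°C 6 of them were called lower and none higher, beside 14.5% and 17.8% of all compared genes. The median log2 difference of the 9 was -1.05. The gene acs-1, for an acyl-CoA synthetase that acts on branched-chain fatty acids, had 75.7 FPKM at 10°C and 28.5 at 1 day (2.65-fold lower, 1.95 to 3.59). The serine palmitoyltransferase genes sptl-1, sptl-2 and sptl-3, for the first enzyme of sphingolipid synthesis, were 2.59-fold, 5.92-fold and 3.10-fold lower, on 9 to 30 counts per condition. Against 20°C in place of 10°C, 2 of the 9 were called lower at 1 day, bckd-1B and sptl-3, beside 12.2% of all compared genes. The median there was -0.54. The ratios of acs-1 (1.42-fold lower, 1.00 to 1.98), sptl-1 (1.66-fold, 0.627 to 3.96) and sptl-2 (1.97-fold, 0.606 to 5.66) fell short. From 20°C to 10°C sptl-2 had itself risen 3.01-fold (1.07 to 9.66). At 5 days against 20°C, 5 of the 9 were called lower and 1 higher, beside 21.5% and 23.6% of all compared genes. The listed gene called higher was bcat-1, for branched-chain amino acid transaminase, from 79.5 FPKM at 20°C to 207 at 5 days (2.60-fold higher, 2.03 to 3.39).

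Of 8 genes for regulators of fatty acid synthesis 7 were compared. At 1 day against 10°C none was called lower and 1 higher (nhr-66, on 1 and 24 counts, not clear), beside 14.5% and 17.8% of all compared genes. At 5 days against 20°C none was called lower and 2 higher (nhr-13 and nhr-66, neither clear), beside 21.5% and 23.6%. The calls upwards are thus near the shares over all compared genes. The Mediator subunit gene mdt-15 had 31.6 FPKM at 10°C and 31.2 at 1 day of 4°C (ratio 0.986, 0.688 to 1.45), and the nuclear receptor gene nhr-49 had 21.5 and 26.8 (ratio 1.24, 0.720 to 2.30). The gene sbp-1, for the SREBP homologue, had 2.46 FPKM on 4 counts and 4.50 on 40 counts (ratio 1.83, 0.661 to 7.04). Of the 4 stdh genes, relatives of let-767, only stdh-1 was compared and it was not called.

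**Figure D5:**
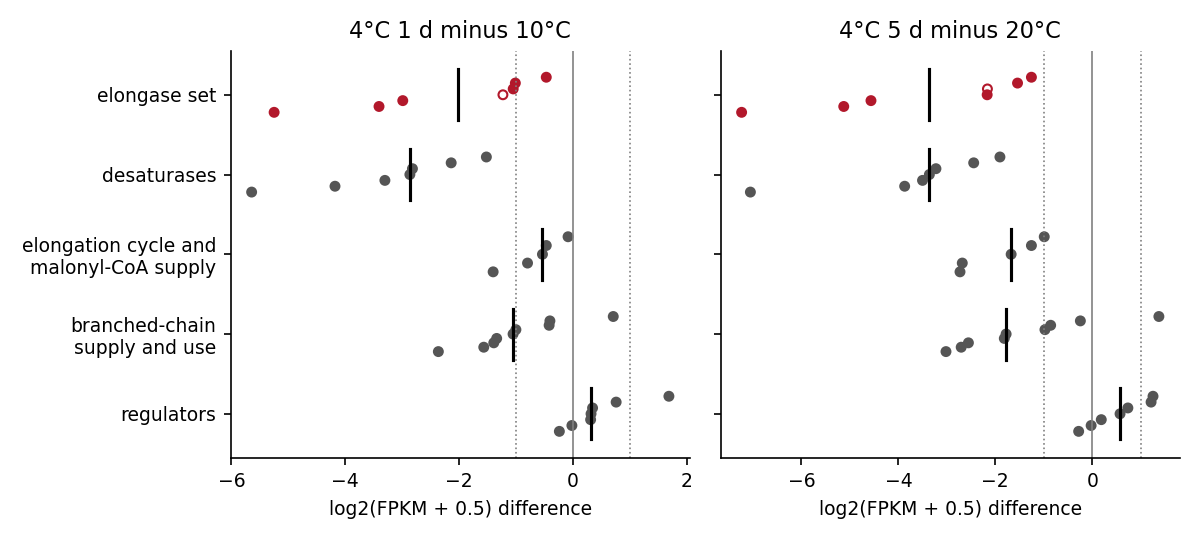
Difference in log2(FPKM + 0.5) of each compared gene of the elongase set (red) and of 4 related lists (grey, let-767 also in the cycle list), 4°C at 1 day minus 10°C on the left and 4°C at 5 days minus 20°C on the right, with black bars at the list medians and dotted lines at 2-fold. The open circle is elo-9, which is left out of the bar, while the desaturase bar includes fat-3 (1 count in each condition on the left). On the left the medians are -2.02 for the elongase set, -2.87 for the desaturases and 0.32 for the regulators.

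Marker genes of the tissues were read beside these falls. Summed over the 7 of 8 intestinal markers with a row in the table, the level was 1650.0 FPKM at 20°C, 1573 at 10°C, 2074 at 1 day of 4°C, 1924 at 3 days and 1221 at 5 days, and all 7 were above 0 in every condition. That sum is mainly asp-1, cpr-6 and act-5. The vacuolar ATPase gene vha-6 had 17.1, 11.1, 2.46, 2.84 and 0.378 FPKM, falling 4.50-fold into 1 day of 4°C (2.05 to 9.71). It was the only 1 of the 7 called lower at that step, beside 14.5% of all compared genes. The other 6 were not called in either direction, and the median log2 difference of the 7 was 0.15. Between 3 and 5 days 4 of the 7 fell clearly (elt-2, ifb-2, vha-6 and cpr-6), beside 10.2% of the genes of that rule. The summed level of 6 hypodermal markers was 499, 568, 89.8, 62.6 and 17.9 FPKM in the same order, moving with the fall of the elongases, with 4, 6, 6, 5 and 5 of the 6 above 0. That sum is mainly col-19, an adult cuticle collagen gene, with 453, 478, 37.2, 9.64 and 4.13 FPKM, and without col-19 it was 46.3, 90.2, 52.6, 53.0 and 13.7 FPKM. The sum of 6 body wall muscle markers was lower in the cold as well, at 1530.0, 1625, 1022, 953 and 1080.5 FPKM. At 1 day against 10°C 2 of the 6 fell clearly, beside 4.23% of the genes of that rule. The part of intestine, hypodermis or muscle in the falls of the elongases was not tested. The sum of 6 neuronal markers rose from 96.6 FPKM at 20°C to 218 at 5 days. That sum is mainly snb-1, with 80.7 and 170 FPKM in these conditions. Of the others, egl-21 (10.4 and 35.7) and rab-3 (2.24 and 9.41, on 1 count at 20°C) were higher at 5 days. For unc-13 (0 and 0.223) there were 0 and 3 counts. Since 1 count of unc-13 at 20°C is worth 0.337 FPKM, no direction can be read for it. The levels of snt-1 (2.23 and 1.97) and unc-104 (0.934 and 0.275) were lower, on 8 counts or fewer. Germline sums ran from 765 to 1117 and those of 4 sperm markers from 23.3 to 62.9.

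The genes whose profile over the 5 conditions lay nearest to that of the members were picked among 4836 genes with at least 100 counts by Euclidean distance on centred log2(FPKM + 0.5). Nearest to the median profile of the 7 compared members were R04F11.5 (distance 0.27), sur-5 (0.35), col-155 (0.35), acs-14 (0.36) and the desaturase gene fat-1 (0.37). That median includes elo-9, which had 4 counts or fewer in each condition and passed the filter only through its warm values. The nearest genes therefore depend in part on it. The gene nearest to elo-6 was col-19 (1.43), that nearest to elo-5 was the collagen gene col-103 (0.48) and that nearest to elo-2 was the collagen gene col-119 (0.89). The level of col-119 was 2021 FPKM at 20°C, 1986 at 10°C, 277 at 1 day of 4°C, 88.7 at 3 days and 48.5 at 5 days. The gene nearest to elo-1 was skr-7 (0.12), with 134, 98.5, 46.3, 29.2 and 42.5 FPKM, lowest at 3 days like elo-1 itself. The genes bca-1 (0.24) and trx-2 (0.17) were nearest to elo-3 and let-767. Among the 6 members with enough counts, elo-9 not included, elo-3 and let-767 were closest (0.80) and elo-6 and let-767 farthest apart (6.04). A distance over 5 pooled values is a description, and all points share the same libraries.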

How the data were processed

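The authors isolated monosome-protected fragments, made small RNA libraries and ran the ORFik ribo-seq pipeline, with fastp 0.23.4 for trimming and STAR 2.7.11b for alignment to WBcel235. The deposited FPKM values hold 1 pooled column per condition, and the sources used here do not give how replicates were pooled, which annotation release or strand rule was used, or how reads matching several genes were handled. A further 1 column matched no sample and was not used.

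Counts were recovered from FPKM with coding lengths of Ensembl release 115 (100% whole within 0.02). The scatter of 2651 low genes (2 to 4 counts) between 20°C and 10°C, as a mean of squared z values, was 0.485 and not the 1 of independent reads, so a recovered count may be a mean over replicates and intervals may be too wide. For each gene the transcript of highest mean level was taken. Genes averaging 1 FPKM or more were compared on log2(FPKM + 0.5), and floors used 3 counts. Named genes were all members, the nearest profiles and the lists. Members and lists were chosen with earlier results of these data known. Steps were tested on simulated independent Poisson counts, a setting from which the scatter of these data departs, so the test does not show how the intervals behave here. Alternatives were the pseudocount, filter, scaling, transcript and call rule. Tools were Matplotlib 3.10.9, pandas 2.3.3, SciPy 1.17.1 and NumPy 2.4.6 under Python 3.11.15.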

Additional observations from a re-analysis of the deposited data

How the results depend on the processing

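No paired analysis was possible because each condition has 1 pooled column and no replicate number, and for the same reason no replicate was left out. The count of members lower from 1 to 3 days at 4°C went from 2 to 1 with a pseudocount of 1 FPKM and to 1 with the clear rule, and that from 3 to 5 days went from 1 to 0 under both. Both alternatives by construction ask more of genes at low levels. With a pseudocount of 0.1 FPKM the count from 1 to 3 days was 3. The other counts stayed within 1.5 times, at 4 to 6 for 1 day of 4°C against 10°C, 6 or 7 for 5 days against 20°C and 0 for 10°C against 20°C. Of 105 log2 differences of single members under other pseudocounts and scaling, the settings able to move them, 0 changed direction. Rescaling by median ratios shifts the log2 differences by -0.11 for 10°C against 20°C and by 0.12 for 5 against 3 days, by -0.18 and -0.22 for 1 and 3 days against 20°C, and by less than 0.1 in the others, which takes let-767 at 3 days against 20°C from -0.96 to -1.18. Using 20°C as the reference for 1 day, or 3 days for 5, and the medians without elo-9, were chosen after seeing the data. Depth limits elo-7, elo-8 and elo-9 in every condition, and elo-5 and elo-6 late in the cold.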

Other observations

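The table holds a second, shorter transcript of elo-1, whose coding sequence of 705 nt lies within that of the longer one, so the difference of their counts gives the footprints on the first 162 nt of the longer coding sequence, 18.7% of its length. That part held 11 of 43 counts at 20°C, or 25.6% (exact 95% interval 13.5 to 41.2), 7 of 22 at 10°C, or 31.8% (13.9 to 54.9), and 11 of 59 at 1 day of 4°C, or 18.6% (9.69 to 30.9). It held 3 of 40 at 3 days, or 7.50% (1.57 to 20.4), and 3 of 66 at 5 days, or 4.55% (0.947 to 12.7). The intervals at 20°C and at 5 days do not overlap. Over 92 genes with such a nested pair of transcripts and at least 20 counts in every condition, whose differing part is 11.2% of the length in the median, the median share was 4.47% at 20°C and 4.97% at 5 days, and 1 of the 92 had a larger fall in share than elo-1. The measure was chosen after its values were seen, and no test was made of it.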
